A study of Caenorhabditis elegans with 2 samples.

Results

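The regions described here are 456 binding peaks on the autosomes of Caenorhabditis elegans that lay in front of a single protein-coding gene but well away from its annotated start. They were chosen from a thresholded list of 3220 peaks of an eGFP fusion of C16A3.4, whose gene is also called znf-622, by position alone. A peak qualified if its summit was not on the X chromosome, lay over 200 bp from any tRNA gene, and fell at −1000 to +200 bp of the annotated 5′ end of exactly 1 protein-coding gene. Of those, the peaks more than 250 bp upstream of that end were kept. The selection took 3220 peaks to 2636 on autosomes, 2521 away from tRNA genes, 1686 in at least 1 promoter window and 972 in exactly 1 window. The 456 further-upstream peaks were 14.2% of the thresholded list (Wilson 95% interval 13.0 to 15.4) and 46.9% of the single-gene promoter peaks (43.8 to 50.1). They stood in front of 448 of 17242 autosomal protein-coding genes. The remaining 516 single-gene peaks, at −250 to +200 bp, are called near-start peaks below, and 714 peaks in the windows of 2 or more genes are called shared-window peaks.

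All samples came from strain OP345, which carries the unc-119(ed3) mutation on chromosome III and the insertion wgIs345 that encodes eGFP-C16A3.4. The material was whole L1 larvae of both sexes pooled, in 2 biological replicates of 1 group, and chromatin immunoprecipitation followed by sequencing gave a peak list per replicate. The control used in peak calling and an untagged strain were not analysed here, and how much of the signal depends on the tag was not tested. Whole animals also mix cell types, and a higher signal in more cells cannot be told apart from a stronger signal in fewer cells.

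The tagged protein belongs to the ZNF622 family of zinc finger proteins, whose yeast relatives help large ribosomal subunits to mature in the cytoplasm. Promoters in C. elegans are short stretches of open chromatin upstream of genes. For most worm genes the first stretch of the primary transcript, the outron, is removed by trans-splicing, which joins a spliced leader RNA to an acceptor site ending in AG. The annotated 5′ end of such a gene can then be the trans-splice site, with transcription beginning further upstream. SL1 leaders are joined mostly to first genes, and SL2 leaders mostly to downstream genes of operons.

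The summit regions below show the letters under a few of these peaks, 60 bp on each side of the summit, from the WBcel235 assembly of RefSeq, which is the ce11 build, written on the strand of the gene. The first 3 are strong peaks whose 121 bp hold neither of the words marked here, the next 7 hold a word that was common at these summits, and the last lies beside a spliced leader RNA gene. Of the first 3, rpl-3 and cox-5A hold GAGAGA or TCTCTC reaching beyond the letters shown but within 100 bp of the summit, and they are counted with the word below. Capitals mark the GA repeat word GAGAGA or its reverse complement TCTCTC, and the word CTGCGTC or its reverse complement GACGCAG.
rpl-3 chrIII:3867510-3867630 plus strand: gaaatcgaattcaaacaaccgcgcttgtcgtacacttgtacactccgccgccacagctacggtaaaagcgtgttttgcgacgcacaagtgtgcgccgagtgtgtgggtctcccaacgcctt
rpl-35 chrIII:7854630-7854750 plus strand: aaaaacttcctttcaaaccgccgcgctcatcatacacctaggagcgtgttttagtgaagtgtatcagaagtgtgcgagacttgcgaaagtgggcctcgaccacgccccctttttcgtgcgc
cox-5A chrIII:12905130-12905250 plus strand: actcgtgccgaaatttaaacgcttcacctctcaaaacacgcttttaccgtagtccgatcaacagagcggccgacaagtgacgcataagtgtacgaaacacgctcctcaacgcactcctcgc
K12H4.5 chrIII:8043936-8044056 plus strand: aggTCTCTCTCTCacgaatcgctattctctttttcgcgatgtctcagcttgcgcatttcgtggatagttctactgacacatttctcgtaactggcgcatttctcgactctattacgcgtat
ztf-7 chrV:9789999-9790119 minus strand: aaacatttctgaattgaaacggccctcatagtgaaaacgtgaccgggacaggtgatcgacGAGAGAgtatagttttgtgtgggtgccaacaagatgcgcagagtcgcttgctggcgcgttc
fust-1 chrII:7152095-7152215 plus strand: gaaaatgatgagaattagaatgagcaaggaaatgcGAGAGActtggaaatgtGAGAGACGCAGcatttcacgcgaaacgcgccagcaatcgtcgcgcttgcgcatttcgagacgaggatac
slrp-1 chrV:13565359-13565479 plus strand: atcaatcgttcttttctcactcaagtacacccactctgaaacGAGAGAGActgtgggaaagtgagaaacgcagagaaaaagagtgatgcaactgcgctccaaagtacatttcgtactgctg
jhdm-1 chrIII:6453808-6453928 plus strand: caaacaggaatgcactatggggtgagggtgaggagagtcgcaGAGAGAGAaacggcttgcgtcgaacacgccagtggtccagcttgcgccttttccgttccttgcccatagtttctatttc
tbc-14 chrII:13447811-13447931 minus strand: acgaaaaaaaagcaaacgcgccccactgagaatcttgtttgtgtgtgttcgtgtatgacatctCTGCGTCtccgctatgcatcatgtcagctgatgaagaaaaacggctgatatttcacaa
Y82E9BR.3 chrIII:1418835-1418955 plus strand: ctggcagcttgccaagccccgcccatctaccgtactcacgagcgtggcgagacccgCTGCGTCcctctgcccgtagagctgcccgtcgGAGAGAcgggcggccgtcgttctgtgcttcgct
H41C03.3 chrII:5844767-5844887 plus strand: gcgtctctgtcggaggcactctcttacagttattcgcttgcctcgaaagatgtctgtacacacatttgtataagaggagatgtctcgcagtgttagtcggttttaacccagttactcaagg

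The next set shows 8 annotated 5′ ends of genes with a further-upstream peak, as 24 bases before the end and the first 6 bases of the gene. Capitals mark TTTCAG, the usual worm splice acceptor, or only AG where the other letters differ, standing directly before the annotated end. In K12H4.5 and cbp-1 no AG stood there.
rpl-3 chrIII:3867830-3867859 plus strand: tttcgtaaaattaatattTTTCAGggtaca
cox-5A chrIII:12905467-12905496 plus strand: catcttaaagctcattgtTTTCAGgtaaca
W08E12.7 chrIV:3295111-3295140 plus strand: cgatttcaatgtttattcTTTCAGatagat
slrp-1 chrV:13565839-13565868 plus strand: atccacgtaaatgtatatTTTCAGagatga
rpl-6 chrIII:7208423-7208452 plus strand: gagttgaaattaattattttgcAGggtaca
vig-1 chrII:1321013-1321042 plus strand: aaatctaaactaacgttcttgcAGgtatcc
K12H4.5 chrIII:8044463-8044492 plus strand: attattagaggatgttacagggtgatgatc
cbp-1 chrIII:9766485-9766514 plus strand: aaaatccatatatccatttcatttttttca

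Apart from cox-5A, described below, the genes whose 5′ ends are shown had their summits at −284 (rpl-3), −380 (W08E12.7), −444 (slrp-1), −329 (rpl-6), −417 (vig-1), −491 (K12H4.5) and −915 bp (cbp-1). The letters directly before the 5′ end therefore varied among genes whose peaks lay at similar distances, and the counts over all 448 genes are given further down.

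The summits were not spread evenly over the range. The median position was −421.5 bp (quartiles −680.5 and −318.8). Of the 456 peaks, 158 lay over 250 and up to 350 bp upstream, 117 over 350 and up to 500, 101 over 500 and up to 750, and 80 over 750 and up to 1000 bp upstream, and these 4 ranges are used below. The count per 50 bp was 86 in the bin nearest the limit and 12 in the farthest bin, and the near-start bins beside the limit held more (90 over 200 and up to 250 bp upstream). Single-gene summits thus formed a single distribution with its highest bin, 135 peaks, over 100 and up to 150 bp upstream, and the limit of 250 bp cut its upstream flank. The members closest to the limit were rpl-13 and set-2 at −252 bp, with signals of 189.6 and 59.5, and atg-18, unc-85, rbpl-1 and npp-13, all at −253 bp, with 110.8, 103.7, 83.8 and 75.9. The peaks just outside, at −250 bp, belonged to sys-1, dld-1 and phm-2, with signals of 54.4, 431.6 and 151.8. At the far end were sup-1 at −1000 bp and hmg-1.1 at −994 bp, with signals of 64.96 and 64.03, and set-3 and mstr-1, both at −986 bp, with 65.2 and 145.4.

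**Figure D1:**
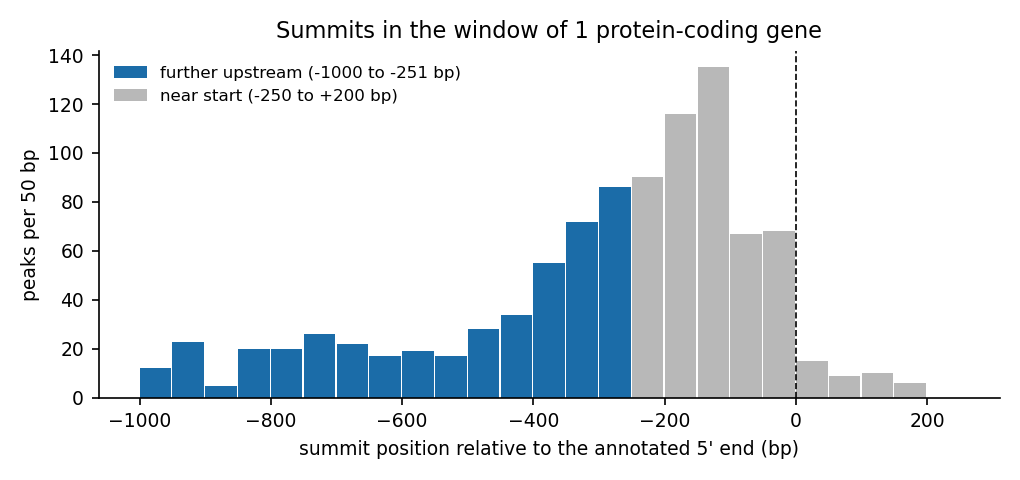
Summits of the 972 single-gene autosomal promoter peaks per 50 bp of distance from the annotated 5′ end (dashed line). The 456 further-upstream peaks (blue) form the upstream flank of the distribution, with 86 in the bin next to the limit, and the 516 near-start peaks (grey) hold its highest bin of 135.

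The signal of a peak is the value the authors deposited for it, on a scale not given in the sources used here. It ran from 48.5 to 931.1 over the further-upstream peaks, with a median of 86.6 (quartiles 62.8 and 136.4), against medians of 89.5 for near-start peaks, 102.6 for shared-window peaks and 85.0 for the whole list. In the replicates' own lists the medians of further-upstream peaks were 36.2 in replicate 1 and 53.3 in replicate 2, against 39.9 and 52.7 for near-start peaks. The further-upstream and near-start medians thus differed by less than the medians of the 2 replicates did. Within the further-upstream class the signal was lower at longer distances, with medians of 94.97, 93.9, 79.7 and 74.1 in the 4 ranges from the nearest to the farthest. Replicate 1 gave 39.3, 40.2, 32.5 and 32.6 for the same ranges, and replicate 2 gave 58.0, 54.8, 50.01 and 45.9. Both replicates had lower medians in the outer 2 ranges than in the inner 2. The 2 samples of 1 group allow no test between conditions, since the smallest two-sided p of an exact sign test over 2 samples is 0.5, and peaks of 1 experiment are not replicates, so these are descriptions.

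Most further-upstream peaks had a nearby summit in the list of each replicate. These lists hold 30000 entries each, of peaks and background, with signals down to 7.565 in replicate 1 and 6.539 in replicate 2. The thresholded list was derived from them, so matches were to be found in advance and are not independent detection. A replicate 1 summit lay within 100 bp of 433 of the 456 peaks (94.96%, interval 92.6 to 96.6), against 94.2% of the whole list. A replicate 2 summit lay within 100 bp of 448 (98.2%, 96.6 to 99.1), against 98.8% of the list. Both were there for 425 peaks (93.2%, 90.5 to 95.2), against 93% of the list, so the share was that of the list, and no further-upstream peak lacked both. Near-start peaks had both in 95.3% and shared-window peaks in 97.5%. The 23 peaks without a replicate 1 summit had signals from 49.9 to 108.8, and their strongest stood before unc-76, an axon outgrowth gene (signal 108.8, replicate 2 69.3), cts-1, citrate synthase (106.5, replicate 2 61.1), and ubc-25, a ubiquitin-conjugating enzyme (86.9, replicate 2 70.0). The 8 peaks without a replicate 2 summit had signals from 50.3 to 117.6, led by Y62F5A.12 (117.6, replicate 1 56.7), mog-4, a splicing helicase (103.9, replicate 1 28.5), and unc-85, a histone chaperone (94.4, replicate 1 40.5).

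The strongest further-upstream peak stood before rpl-3, a protein of the large ribosomal subunit, at chrIII:3867444-3867720. Its signal was 931.1, against 399.8 in the list of replicate 1 and 533.7 in that of replicate 2, and it was the strongest peak of the whole list. The peak of rpl-35, another large-subunit protein, had 643.9, 248.0 and 409.1 in the same order at −444 bp (chrIII:7854562-7854829). K12H4.5 had 620.0, 238.4 and 378.4 at −491 bp. These peaks, shown above, lay where no other gene is annotated.

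The peak of egg-5, a pseudophosphatase of the egg-to-embryo transition, had a signal of 515.9, with 190.3 in replicate 1 and 322.6 in replicate 2. cox-5A, a cytochrome c oxidase subunit, had 482.5, 222.1 and 268.4 in the same order. F36A2.7 had 409.5, 175.5 and 228.9, and H41C03.3 had 391.3, 188.8 and 210.4 at −950 bp. W08E12.7 followed with 352.2, 150.6 and 203.8. The value in replicate 2 was the higher of the replicates' values for each of these genes.

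The rest of the 20 strongest had signals from 325.1 down to 265.3. cept-2, a choline or ethanolamine phosphotransferase, had 325.1, with 137.3 in replicate 1 and 190.8 in replicate 2. cbp-1, the CBP/p300 histone acetyltransferase, had 311.1, 133.8 and 175.7 at −915 bp. vig-1, a component of the RNA-induced silencing complex, had 307.3, 105.8 and 199.0. icd-2, a subunit of the nascent polypeptide-associated complex, had 296.4, 135.1 and 161.0. Large-subunit genes in this group were also rpl-6 with 301.3, 136.7 and 165.5, and rpl-14 with 272.4, 130.1 and 145.0. The group also held the peaks of C47E8.4, ztf-7, mrck-1, a kinase acting on the actomyosin cytoskeleton, ppm-1.A, a protein phosphatase, and fust-1 and sqd-1, RNA-binding proteins, with signals from 293.2 down to 265.3. All 20 had a summit in both replicates, and all 20 were higher in replicate 2. Of the 225 matched further-upstream peaks among the 1610 strongest of the list, 88.9% were higher in replicate 2.

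**Figure D2:**
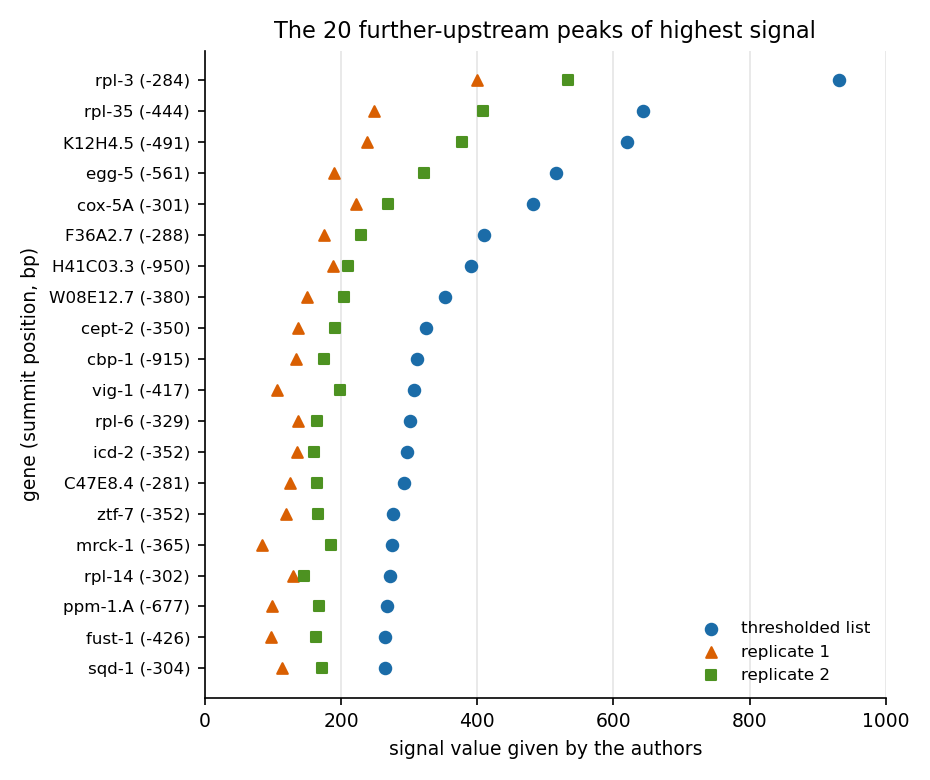
Signal values of the 20 further-upstream peaks of highest signal in the thresholded list (circles), in replicate 1 alone (triangles) and in replicate 2 alone (squares), with the gene and the summit position. The squares lie right of the triangles in all 20 rows, and rpl-3 stands apart with 931.1.

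Across the 425 peaks matched in both replicates, the 2 replicates' signals ranked peaks similarly (Spearman's rho 0.64 over 425 peaks, 0.69 over 492 near-start peaks and 0.62 over 2996 peaks of the list), as a description, since the points share their 2 libraries. Replicate 2 was higher at 348 of the 425 (81.9%), against 74.4% of matched near-start peaks and 80.9% of the list. The median log2 ratio of replicate 2 over replicate 1 was 0.60 (quartiles 0.18 and 0.97), against 0.39 for near-start peaks, 0.41 for shared-window peaks and 0.54 for the list. Over 2 times higher in replicate 2 were 102 peaks (24%), and over 2 times lower were 8 (1.88%). The whole list was spread alike, with an upper quartile of 0.97 and a 90th percentile of 1.45, the values of the class as well. Near-start peaks had 0.79 and 1.18.

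The ends of that range were far apart. rbr-2, a histone H3K4 demethylase, had 9.11 in replicate 1 and 79.2 in replicate 2, a log2 ratio of 3.12. tax-6, a calcineurin A subunit, had 9.02 and 57.5 (log2 ratio 2.67), fbxa-83, an F-box gene, had 7.81 and 45.1 (2.53), and F54F2.6 had 8.31 and 44.6 (2.42). These replicate 1 values lay near the lowest of that list (7.565) and below the 10th percentile of the class (18.99). At the other end, C29H12.2 had 42.6 in replicate 1 and 12.5 in replicate 2 (log2 ratio −1.77), F13H10.8 had 40.7 and 12.3 (−1.73), ccm-3 had 64.2 and 23.3 (−1.46), and B0507.2 had 35.3 and 13.6 (−1.38). Here the replicate 2 values were below the 10th percentile of the class (28.34). Extreme ratios thus rested on weak entries of 1 list. The peaks highest in replicate 2 had 39.3% to 55.2% G and C within 100 bp of the summit, and those highest in replicate 1 had 28.4% to 35.3%.

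Base composition moved with the replicate ratio over the whole class. Peaks with over 40% G and C had a median log2 ratio of 0.78 (n = 242 matched) and peaks with 40% or less had 0.28 (n = 183). Near-start peaks gave 0.67 (n = 181) and 0.26 (n = 311) in the same classes, and shared-window peaks 0.60 and 0.22. Of further-upstream peaks 57.5% were over 40% (interval 52.9 to 61.9), against 38.0% of near-start peaks (33.9 to 42.3). The median was 41.3% for further-upstream summits, 38.8% for near-start summits and 35.8% for the flanks 500 bp to each side of the further-upstream summits. The part of base composition in the difference between the replicates was not tested.

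**Figure D3:**
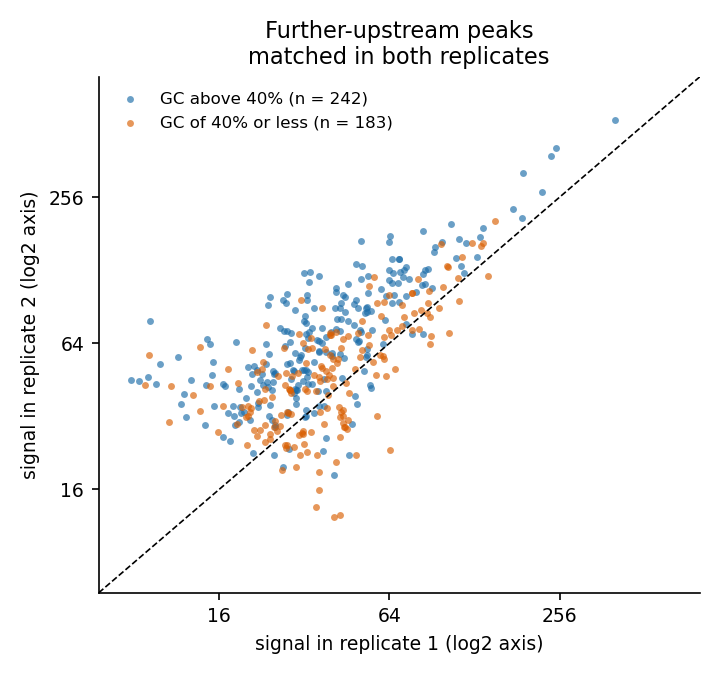
Signal in replicate 2 against replicate 1 for the 425 further-upstream peaks matched within 100 bp, on log2 axes, with peaks of over 40% G and C in blue and the others in orange. Most points lie above the dashed line of equal values, the blue ones farther from it (median log2 ratio 0.78 against 0.28).

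The GA repeat word was the six-base word whose share differed most between the summits and their flanks. GAGAGA stood on either strand within 100 bp of 181 of the 456 summits (39.7%, interval 35.3 to 44.3), against 28.3% of near-start summits (24.6 to 32.3), 24.8% of shared-window summits and 11.95% of flank windows 500 bp away (10 to 14.2). Windows of the same width at −422 bp of all 17242 autosomal protein-coding genes held it in 10.4%. By that difference AGAGAG came next, in 31.1% of summit windows against 9.65% of flanks. CGTCTC was in 28.1% against 6.798%, AGAGAA in 40.8% against 19.6%, AGAGAC in 27.2% against 8.11%, and GAGAAA in 46.7% against 27.7%. These words share letters with one another in GA runs and in GAGACG, so their counts are not separate. On the gene's own strand GAGAGA stood at 71 summits and on the opposite strand at 125, with 15 counted in both.

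The share of summits with the GA repeat was higher at longer distances from the gene. It was 28.5% up to 350 bp upstream (45 of 158, interval 22.02 to 36.0), 35.0% up to 500 bp (41 of 117), 46.5% up to 750 bp (47 of 101) and 60% in the farthest range (48 of 80, 49.1 to 70.04). The flanks of the same peaks had 10.1%, 11.5%, 13.9% and 13.8%, and windows centred in each range before all autosomal genes had 11.6%, 10.5%, 10.1% and 10.5%. The intervals of the nearest and the farthest range did not overlap, while neither background changed by more than a few percentage points. The word CTGCGTC stood at 71 summits (15.6%, 12.5 to 19.2), against 17.2% of near-start summits (14.2 to 20.8), 1.64% of flanks and 2.08% of all-gene windows at −422 bp, and in the 4 ranges at 11.4%, 14.5%, 20.8% and 18.8%. Its 9-base form CTGCGTCTC stood at 59 summits (12.9%), against 12.4% of near-start summits.

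**Figure D4:**
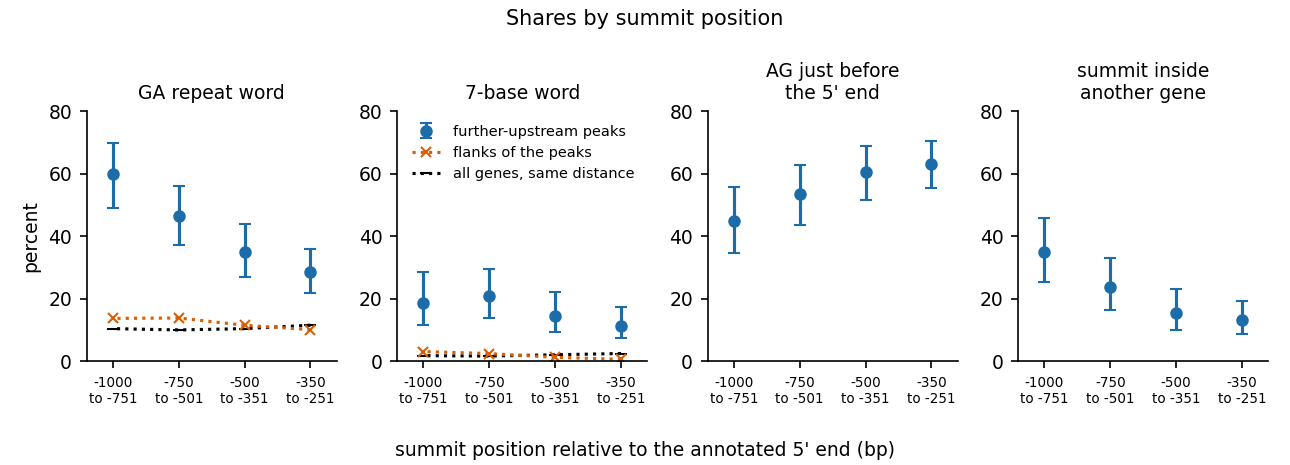
Percent of further-upstream peaks (blue, Wilson 95% intervals) in 4 ranges of summit position with GAGAGA, with the 7-base word CTGCGTC, with AG directly before the gene's 5′ end, and with the summit inside another gene, and, for the words, the shares in the flanks (orange) and before all autosomal genes (black). The GA repeat is at 60% in the farthest range and 28.5% in the nearest. No background by distance was counted for AG or for summits inside another gene.

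Both words together stood at 50 summits, GAGAGA alone at 131, CTGCGTC alone at 21, and neither at 254 (55.7%). The median signals of these groups were 93.3, 84.3, 96.2 and 85.2, so peaks with and without the words had similar signals. Among the 20 strongest peaks, 8 held at least 1 of the words. In the sequences above, K12H4.5 held the GA repeat as a pyrimidine run at the start of the window, ztf-7 held 1 copy next to the summit, and fust-1 held GAGAGA running into GACGCAG. jhdm-1 and slrp-1 held GAGAGAGA, a longer run that stood at 52 further-upstream summits (11.4%), against 6.202% of near-start summits. A match of letters is a description and says nothing of which protein sits there.

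Peaks with the GA repeat had a median signal of 33.4 in replicate 1 and 57.2 in replicate 2, while those without it had 38.3 and 51.1. The median log2 ratio of replicate 2 over replicate 1 was 0.74 with the word (n = 168) and 0.47 without it (n = 257). The ratio was not ordered the same way at every distance. From the nearest to the farthest range its medians were 0.72, 0.53, 0.90 and 0.84 with the word and 0.37, 0.68, 0.53 and 0.50 without it, so the second range had the lower ratio with the word. In the farthest range the peaks with the word had the lower medians in both replicates, 28.6 in replicate 1 and 45.1 in replicate 2, against 41.6 and 53.1 without it. Base composition, which moved with the ratio too, was not separated from the word.

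TTTCAG and TATAAA had lower shares at the summits than beside them. The summits held more G and C than the flanks (medians 41.3% and 35.8%). Base composition was not separated from the share of any word, here or above. TTTCAG, the splice acceptor word, stood on either strand within 100 bp of 82 summits (17.98%, 14.7 to 21.8), against 24.2% of near-start summits and 37.5% of flank windows (34.4 to 40.7). On the gene's strand its share per 50 bp was 0.658% just before the summit, and 12.5% at 250 to 299 bp downstream of it, towards the gene. The selection puts every annotated 5′ end more than 250 bp downstream of its summit, with 86 of them in the first 50 bp past that limit, so the place of this highest share is set by the choice of peaks. TATAAA stood at 12.7% of summits, against 20.9% of near-start summits, 20.3% of flanks and 24.2% of all-gene windows at −422 bp, where TTTCAG stood at 36.0%. Other words were searched on both strands as well. GATAAG stood at 5.26% of summits and in 7.46% of all-gene windows, CACGTG at 5.48% and 3.30%, TGACGT at 9.21% and 6.08%, the CCAAT box at 30.5% and 34.6%, and the run of 6 A at 55.04% and 66.1%. The forkhead word GTAAACA stood at 5.48%, against 4.07% of near-start summits, 1.75% of flanks and 2.61% of all-gene windows, and the GC box GGGCGG at 9.21%, against 8.91%, 4.39% and 3.39%.

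**Figure D5:**
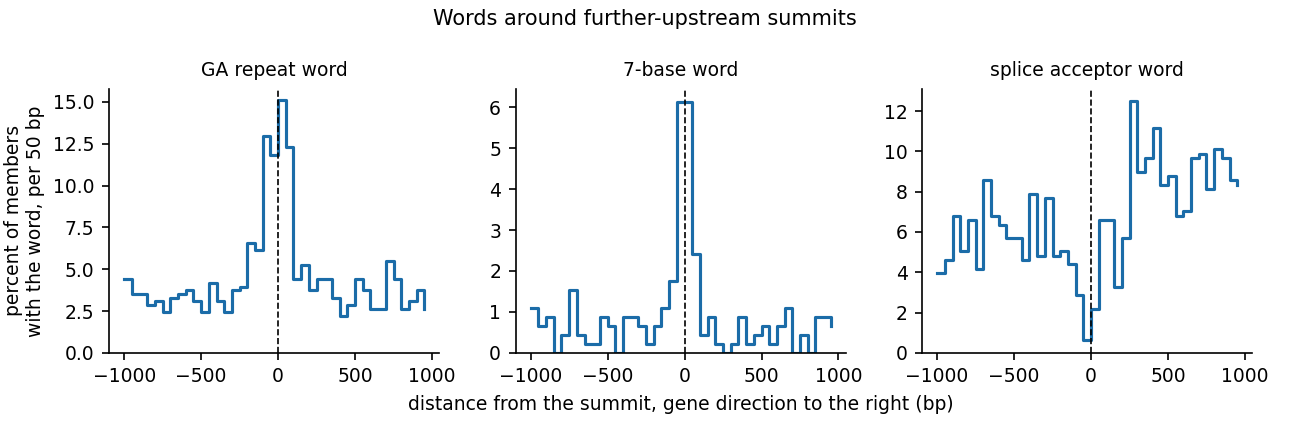
Percent of the 456 further-upstream peaks with a word in each 50 bp step from 1000 bp before to 1000 bp after the summit, in the gene's direction, for GAGAGA and the 7-base word CTGCGTC on either strand and for TTTCAG on the gene's strand. The first 2 words peak at the summit (15.1% and 6.14%), while TTTCAG is lowest just before it (0.658%) and reaches 12.5% at 250 to 299 bp after it, where the selection places the nearest 5′ ends.

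Many annotated 5′ ends stood directly behind an AG, as the rpl-3 and cox-5A sequences above do. AG stood directly before the 5′ end of 57.1% of the 448 genes with a further-upstream peak (interval 52.5 to 61.7), against 43.7% of 515 genes with a near-start peak (39.5 to 48) and 27.7% of all autosomal protein-coding genes. TTTCAG stood there in 125 genes (27.9%, 23.95 to 32.2), against 21.6% of genes with a near-start peak and 12.3% of all genes. By distance, the AG share was 63.3% for peaks up to 350 bp upstream (55.5 to 70.4), 60.7% up to 500 bp, 53.5% up to 750 bp and 45.0% in the farthest range (34.6 to 55.9). Among the 20 strongest peaks 12 genes had AG there and 6 had TTTCAG. Whether each gene is trans-spliced was not measured here, and AG before an annotated end is only a description of the sequence.

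Most summits lay where no other gene is annotated. That was so for 365 of the 456 (80.04%, 76.1 to 83.5), against 87.8% of near-start summits. The summit fell in an intron of another protein-coding gene at 40 peaks (8.77%), in an untranslated exon at 22 (4.82%), in a coding exon at 2 and in a non-coding gene or pseudogene alone at 27 (5.92%). The 2 in coding exons, named for that reason after their values were seen, were the peak of mma-1, inside ril-2, and that of serr-1, inside rskn-1. Of the 20 strongest peaks, that of C47E8.4 lay in an intron of hsp-90, which encodes the Hsp90 chaperone, and that of mrck-1 lay in the non-coding gene F31F7.8. A summit inside another gene was found for 13.3% of peaks in the nearest range and for 35.0% of those in the farthest (intervals 8.86 to 19.5 and 25.5 to 45.9). The share of positions inside another gene at the same distances before all genes was not counted. Whether this rise is particular to the peaks was therefore not tested. The nearest upstream protein-coding gene was on the same strand for 273 peaks (59.9%), against 62.0% of near-start peaks. Peaks between close divergent genes fall in 2 windows and are in the shared-window class. The choice of peaks thus removes some opposite-strand neighbours from both classes, and the share over all genes was not counted.

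Some of the peaks assigned to a protein-coding gene lay directly before the start of a small RNA gene. In all, 117 of the 456 summits (25.7%, 21.9 to 29.9) were nearer to another gene's transcript start than to the assigned 5′ end. At 26 of these the nearer start belonged to a protein-coding gene. A transcript start of another gene was within 250 bp of 88 of the 456 summits (19.3%, 15.9 to 23.2), against 49 of 516 near-start summits (9.50%, 7.26 to 12.3). The nearest such start belonged to a gene annotated ncRNA at 45 peaks, snoRNA at 15, protein-coding at 15, snRNA at 7, piRNA at 3, pseudogene at 2 and lincRNA at 1. Near-start peaks had 6 for snoRNA and 0 for snRNA. The choice of peaks left out every summit in the promoter window of another protein-coding gene. It thus limited the protein-coding counts of 26 and 15 above, while starts of non-coding genes other than tRNA genes were not restricted. Whether the peaks favour starts of non-coding genes over protein-coding ones was therefore not tested. At 21 of the 22 peaks by snRNA or snoRNA genes the summit was upstream of that start, at 20 of them by no more than 110 bp, with a median of −58 bp from the small RNA gene and −663.5 bp from the protein-coding gene. At the 45 by ncRNA genes it was upstream in 17. The 22 peaks had a median signal of 126.9, with 49.4 in replicate 1 and 74.3 in replicate 2, against 85.0, 36.0 and 52.4 for the other 434.

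The small nuclear RNA class holds spliceosomal RNAs and, in worms, the SL2 spliced leader RNAs, and snoRNAs guide the modification of ribosomal and other RNAs. The peak of egg-5 at −561 bp lay 56 bp upstream of sls-2.4, and that of H41C03.3 at −950 bp lay 38 bp upstream of sls-2.1, both SL2 RNA genes. The peak of mrpl-23, a mitochondrial ribosomal protein gene, was at −969 bp and 30 bp upstream of the snoRNA gene T08B2.13, with a signal of 215.7, 87.5 in replicate 1 and 128.9 in replicate 2. gst-27, a glutathione S-transferase gene, had its peak at −325 bp and 28 bp upstream of the snoRNA gene Y53F4B.48, with 208.3, 65.4 and 142.0. snr-4, which encodes a core protein of spliceosomal particles, had its peak at −335 bp and 60 bp upstream of the snRNA gene T11F9.15, with 161.0, 65.5 and 94.0. For these peaks the small RNA start was the nearer start. Over the autosomes, 7 of 126 snRNA genes and 16 of 313 snoRNA genes had a further-upstream summit within 250 bp, against 17 and 83 with any summit of the list there.

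Of the 24 gene lists used here, that of cytosolic ribosomal proteins had the largest share of genes with a further-upstream peak. Of 79 autosomal genes of cytosolic ribosomal proteins, 16 had one (20.3%, interval 12.9 to 30.4), against 2.60% of all 17242 autosomal protein-coding genes. A near-start peak stood before 5 of the 79, against 2.99% of all genes, and a shared-window peak before 49, against 8.48%. The 16 were rpl-3, rpl-6, rpl-13, rpl-14, rpl-32, rpl-35, rpl-38, rps-2, rps-4, rps-5, rps-7, rps-8, rps-11, rps-21, rps-24 and rps-25. Their signals ran from 68.6 to 931.1 with a median of 195.2, and in 15 of 16 the signal was above the 86.6 of all further-upstream peaks. Replicate 1 ran from 38.2 to 399.8 (median 84.4) and replicate 2 from 25.96 to 533.7 (median 117.6), with replicate 2 higher at 13. Their summits kept to the near side, 15 of 16 at −400 bp or nearer, against 213 of 456 (46.7%) of the class. AG stood directly before the 5′ end of 13, and GAGAGA near the summit of 9.

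Other lists of general cell function had smaller shares. Oxidative phosphorylation had 6 of 39 genes (15.4%, 7.25 to 29.7), led by cox-5A, cyc-1, cytochrome c1 (230.1, 111.5 in replicate 1 and 118.4 in replicate 2), and cox-4, a cytochrome c oxidase subunit (170.1, 63.5 and 101.1). Ubiquitin conjugation and removal had 10 of 66 (15.2%, 8.44 to 25.7), against 4 with a near-start peak, led by the deubiquitinase gene usp-4 (203.4, 69.8 and 126.0), the conjugating enzyme gene ubc-7 (161.8, 54.3 and 110.4) and ufd-2, a ubiquitin chain elongation factor (161.6, 69.0 and 94.5). The proteasome had 4 of 33, translation factors 5 of 40, with eif-3.J highest (123.8, 54.3 and 63.2), nuclear pore and transport genes 5 of 43, with the importin gene ima-3 highest (171.6, 73.1 and 99.7), and chromatin modifiers 6 of 76, with set-4, a histone methyltransferase gene, highest (244.8, 92.1 and 152.0). Each of these shares was above the 2.60% of all genes, and their intervals overlapped one another. Near-start shares were higher than these for translation factors (17.5%), nuclear pore and transport genes (18.6%) and chromatin modifiers (10.5%). They were lower for oxidative phosphorylation (7.69%), ubiquitin conjugation and removal (6.06%) and the proteasome (9.09%). Shared-window shares were higher in every one of these lists, from 16.7% for ubiquitin conjugation and removal to 50% for translation factors. High shares were thus not particular to further-upstream peaks.

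Mitochondrial ribosomal proteins (2 of 70), chaperones (2 of 60, hsp-1 highest with 264.0) and membrane traffic (4 of 100, vps-60 highest with 191.0) had shares whose intervals held the 2.60% of all genes. The hsp-1 peak, at the gene of the constitutive Hsp70, was higher in replicate 1 (142.9) than in replicate 2 (121.1). The aminoacyl-tRNA synthetases had 2 of 31, kars-1 with 167.7 (104.3 in replicate 1 and 70.7 in replicate 2) and aars-2 with 52.3. The lists of splicing genes (3 of 56), RNA polymerase, Mediator and TFIID (3 of 53) and the vacuolar ATPase (1 of 17, vha-13 with 125.0) also had few.

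Among developmental and regulatory genes the shares varied from list to list. The lin genes, named for cell lineage phenotypes, had 6 of 41 (14.6%, 6.88 to 28.4), against 2 with a near-start peak: lin-66 (154.0, 32.0 in replicate 1 and 124.7 in replicate 2), lin-59, a histone methyltransferase gene (153.5, 36.0 and 121.4), lin-23, an F-box protein gene (146.4, 49.7 and 89.1), lin-13, lin-28 and lin-49. A shared-window peak stood before 8 of the 41 lin genes. The unc genes, named for uncoordinated movement, had 5 of 78, the let genes, named for lethality, 1 of 32, and the ceh homeobox genes 1 of 45, ceh-20 with 136.7 (53.3 and 86.3). Nuclear hormone receptors had 5 of 246 (2.03%), with nhr-49, a regulator of fat metabolism, highest (117.1, 34.6 and 89.1). The collagen list had 4 of 142, col-8, col-42, col-63 and bli-4, of which bli-4 is listed by its name and is not itself a collagen gene. Detoxification enzymes had 2 of 171, gst-27 and ugt-49. Chemoreceptor genes had 2 of 1143 (0.175%, 0.0480 to 0.636), sre-23 and srh-76, and neuropeptide genes 0 of 106 and histone genes 0 of 68, which allow shares of up to 2.83% and 4.41% (3 counts of the total). In all, 96 of the 456 peaks (21.05%) stood at genes of 1 of the 24 lists. The share of all autosomal protein-coding genes in any list was not counted, so whether 21.05% is high was not tested. The lists were made from gene names, and a gene without such a name is in none of them. A peak was counted for the gene whose window held it, which need not be the gene of the nearest start. The sre-23 peak lay 68 bp upstream of a snoRNA gene and the cox-6A peak 72 bp upstream of an snRNA gene. The vha-13 peak lay in an untranslated exon of cept-2.

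Some genes with a further-upstream peak had another peak nearer to the start. Of all autosomal protein-coding genes, 2.99% had a near-start peak and 8.48% a shared-window peak. The share of all genes with a pooled peak near the start was not counted, so whether the counts below are low was not tested. A nearer thresholded peak in the same window was found for 20 of the 456 (4.39%, 2.86 to 6.68), and a peak of the weaker pooled list at −250 to +200 bp for 56 (12.3%, 9.58 to 15.6). In 8 genes both peaks were further-upstream peaks: H41C03.3, Y62F5A.12, cts-1, eel-1, egg-5, hmg-1.1, mstr-1 and unc-85. The deposited intervals of the 2 peaks overlapped in Y62F5A.12, cts-1, eel-1, egg-5 and unc-85, and touched in H41C03.3. Only those of hmg-1.1 and mstr-1 were apart, so 2 summits need not be 2 separate sites. Overlap among the other nearer peaks was not counted. The distal egg-5 peak had 135.4, against 515.9 for the proximal one, while H41C03.3 had 391.3 at −950 bp and 125.5 at −750 bp. In eel-1, a HECT ubiquitin ligase gene, the peaks at −572 and −360 bp had 114.8 and 130.2. The mstr-1 peaks at −986 and −262 bp had 145.4 and 159.3, and those of hmg-1.1, a high mobility group box gene, at −994 and −270 bp had 64.03 and 99.4. In cts-1 the peak at −491 bp had 75.8 and that at −285 bp had 106.5, and no replicate 1 summit matched the nearer of them. The tagged gene znf-622 itself had no summit of the thresholded or the pooled list in its window or body. The gene unc-119, mutated in the strain, had none in its window, and 5 pooled summits in its body with signals of at most 23.5.

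Further-upstream peaks had a larger share only among the weakest peaks of the pooled list. Among single-gene autosomal peaks their share was 45.8% (41.5 to 50.1) at ranks 1 to 1610 and 48.2% (43.7 to 52.7) at ranks 1611 to 3220. It was 48.2% (44.8 to 51.65) at ranks 3221 to 6440, with an interval overlapping both. At ranks 6441 to 21096 it was 56.5% (54.6 to 58.4). The median summit of the class moved out in the same order, at −389, −485, −570 and −633 bp. Chromosomes I, II, III, IV and V held 98, 98, 99, 73 and 88 of the 456 peaks. A further-upstream peak stood before 3.34%, 2.725%, 3.71%, 2.19% and 1.76% of their protein-coding genes. Chromosome III held 15.3% of autosomal protein-coding genes and 21.7% of the peaks, and chromosome V held 28.96% and 19.3%. The deposited peak was 344 bp wide at 368 of the 456, and the summit was at the exact centre of the peak at 377 (82.7%), so positions are as fine as that centre allows.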

How the data were processed

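The data are peak lists on the ce11 build. Per the notes deposited beside them, the authors made a list of peaks and background from the aligned reads of each replicate and 1 from both together, each against a control, and derived the thresholded list from these 3 lists by the irreproducible discovery rate. The sources used here do not give the aligner or the peak caller. Signal is the value the authors deposited for each peak, on a scale that is not stated, and it describes and ranks peaks within a list. The −log10 q value the authors deposited, tied at its highest value, was not used for results. Without read counts in the lists the depth of each sample is unknown. Intervals are Wilson 95% intervals and cover only the error of counting peaks.

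Summits were placed on Ensembl release 115 genes of WBcel235, the assembly of ce11, with Python 3.11.15, pandas 2.3.3 and numpy 2.4.6, and sequence was read from the RefSeq copy of that assembly. Positions are signed distances from the outermost annotated 5′ end. Replicate summits were matched within 100 bp. Words were searched within 100 bp of the summit on both strands, and flanks were the same width 500 bp away. The placing and counting were tested on simulated data.

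Named genes were the 20 strongest peaks, the strongest unmatched peaks, the extremes of the replicate ratio and of distance, up to 3 per gene list, genes with 2 peaks, znf-622 and unc-119. Genes named beside small RNA genes and those of the printed word-holding sequences outside these groups were chosen after their values were seen. The members, gene lists and words were chosen with earlier results of these data known. The lists on ce10 were not used here.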

Additional observations from a re-analysis of the deposited data

How the results depend on the processing

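Each count and median was recomputed with other peak lists, limits and annotation. With the strongest 3220 peaks of 1 replicate in place of the thresholded list, the number of further-upstream peaks was 443 to 468, their median position −443 to −439 bp and their median signal 34.7 to 53.6. Peaks matched in both were 385 to 393, those with a nearer peak 21 to 31, those inside another gene 87 to 95, those within 250 bp of another start 84 to 96, and those at listed genes 86 to 87. Among the 1610 strongest peaks of the list there were 232 peaks, with a median of −389 bp and 135.5, of which 225 matched in both, 7 had a nearer peak, 47 lay inside another gene and 50 lay within 250 bp of a start. Among 2 times as many pooled peaks there were 850, with a median of −487 bp and 51.4, of which 664 matched, 99 had a nearer peak, 186 lay inside another gene and 151 lay within 250 bp of a start. As shares, the last 2 kinds changed little: 19.96% inside another gene became 20.3% and 21.9%, and 19.3% by a start became 21.6% and 17.8%.

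The median position was −372 bp with the near limit at 200 bp upstream, −497.5 bp with it at 300 bp, −773 bp with windows of 2000 bp, and −418 bp with RefSeq genes, an alternative added after seeing the data under which 440 of the 456 peaks stayed members. With windows of 2000 bp, 67 peaks had a nearer peak and 144 lay inside another gene. Within 50 bp of the summit, GAGAGA stood at 108 peaks (23.7%), against 5.81% of flanks. Of 84 recomputed values of the main results, 58 stayed within their spread or within 1.5 times the main count and 26 did not. Match distances of 50 and 200 bp, the middle of the peak and a tRNA distance of 500 bp moved none by more than that. Of 18 recomputed counts of the other words, 11 moved by over 1.5 times. No paired analysis was possible because both samples belong to 1 group.

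The list has no depth, no input track was analysed here, and 2 replicates of 1 group give no test, so differences between classes of peaks are descriptions of these lists. Annotated 5′ ends set the class of each peak, and most summits are the centres of peaks of 1 width.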
